A study of Mus musculus with 5 samples.

Results

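57 probe sets of 56 genes were dim on one basal array of a mouse tracheal expression series and bright on the other. They were chosen on the deposited intensities: 1 annotated gene symbol, below 100 on basal replicate 1 and at or above 400 on basal replicate 2, in arbitrary linear units, with control probe sets and symbols starting with Muc, Scgb, Bpif or Krt left out. They are 57 of 34945 probe sets with 1 symbol, or 0.163%. Since the basal intensities chose the members, the gap between the basal arrays is given as a description with no test, and only the 3 duct arrays stand outside the choice. The working name of the group, genes present in only basal replicate 2, did not hold across the 5 arrays. 30 members were at or above 100 on all 3 duct arrays, and 19 (33.3%) were at or above 400 on at least 1 of them. The matching shares of all probe sets with 1 symbol were not counted, so both counts only describe the members. Below 100 on duct replicates 1 to 3 were 22, 11 and 14 members, against 45.1%, 35.6% and 35.7% of probe sets with 1 symbol. At or above 400 were 8, 9 and 12 of the 57 members, against 31.2%, 32.5% and 31.8%. At both limits the share of members was the smaller on each duct array. With 1 array on each side, nothing in the basal comparison can be tested against replicate error.

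RNA came from epithelial cells of the proximal airway of C57BL/6 mice of both sexes, 8 to 12 weeks old, hybridised to an Affymetrix 3' expression array for the whole mouse genome. Each of the 5 arrays was made from its own pool of 10 to 15 mice, so no value belongs to 1 animal. The 2 basal samples were surface epithelium of the lower trachea, freed with dispase and sorted as positive for ITGA6, an integrin chain of the basal cell surface, and for a further surface antigen. The 3 duct samples were cells of the submucosal gland ducts of the upper trachea, sorted by that further antigen without ITGA6 from tissue whose surface epithelium had been removed with pronase. The labels name no engineered allele and no agent. The groups thus differ in enzyme, part of the trachea and gate as well as in cell type, which cannot be told apart. Values are given in the order of the replicate numbers, which mark separate pools and were not taken to pair samples. Duct replicate 3 went against the stated mix of sexes: its Y-linked Eif2s3y read 3.06, against 787.8 and 693.9 in the other duct pools.

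The surface of the mouse trachea is lined by basal cells, which sit on the basement membrane, and by luminal cells above them, mainly secretory (club) cells and ciliated cells. Luminal secretory cells release secretoglobins, antimicrobial proteins and mucins, and carry immunoglobulin A from the tissue side into the airway. Mucous cells make gel-forming mucins with their packaging and processing proteins, and serous cells of the glands make lactoferrin and lysozyme. A sort for ITGA6 is meant to keep basal cells and leave luminal cells behind, and the members pose the question whether luminal secretory cells were carried into one basal pool.

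The brightest of 27 probe sets for Bacillus transcripts, used as a measure of background, read 59.7 then 86.5 in the basal pools and 39.5 to 61.9 in the duct pools. The median intensity was 152.8 then 146.5 in the basal pools and 92.3, 149.1 and 149.4 in the duct pools. The 3' to 5' probe set ratio of Gapdh was 3.24 then 4.64 in the basal pools and 3.92 to 4.37 on the duct arrays. Basal replicate 1 thus had the lowest of the 5 and basal replicate 2 the highest. The same ratio of Actb was 0.909 then 0.972 in the basal pools and 0.938 to 1.01 on the duct arrays. There basal replicate 1 was again the lowest, but duct replicate 1 was the highest. The part of these ratios in the members was not tested. On basal replicate 1, 28 of the 57 members were at or below the brightest Bacillus control, so their folds have no measured lower side. Precision is limited by the number of arrays, 2 and 3 a group.

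Member values are those of the member probe set, which was often not the most intense of its gene. The marker lists used here, chosen with earlier results known, held 3 of the 56 member genes (5.36%) and 315 of all 18193 genes (1.73%); the 3 are in the luminal secretory or the mucous list. Pigr, the receptor that carries polymeric immunoglobulins across the epithelium, read 71.6 then 1301 in the basal pools and 1678, 169.3 and 565.5 in the duct pools. Basal replicate 2 thus lay inside the duct range, and basal replicate 1 below all other arrays. Gp2, the gene of a membrane glycoprotein released into mucous secretions, read 47.0 then 422.7 in the basal pools and 226.4, 358.8 and 244.7 in the duct pools. All 3 duct arrays lay between the basal arrays. Dmbt1, a scavenger receptor protein of mucosal secretions, read 69.1 then 595.4 in the basal pools and 6873, 2424 and 4198 in the duct pools. The duct arrays, at 4498 ± 2240 (SD, n = 3), all lay above both basal arrays.

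RefSeq promoter sequence (assembly GRCm38.p6) was found for 44 of the 56 member genes, as 61 promoters. The 250 bases before the start are shown for Pigr and Gp2, the list members with an entry. Promoters of other members, also of those that act in secretion, are not shown. Capitals mark exact matches to the E-box CACGTG, which reads the same on both strands, and to the TATA-box letters TATAAA, searched on both strands; the matches do not overlap. The Pigr promoter lies at chr1:130826434-130826683 on the plus strand and the Gp2 promoter at chr7:119459273-119459522 on the minus strand.
Pigr: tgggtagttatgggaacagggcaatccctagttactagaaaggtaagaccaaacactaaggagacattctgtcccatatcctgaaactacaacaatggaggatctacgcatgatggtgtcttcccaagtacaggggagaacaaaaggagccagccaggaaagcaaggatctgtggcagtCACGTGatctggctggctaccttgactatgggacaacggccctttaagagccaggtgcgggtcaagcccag
Gp2: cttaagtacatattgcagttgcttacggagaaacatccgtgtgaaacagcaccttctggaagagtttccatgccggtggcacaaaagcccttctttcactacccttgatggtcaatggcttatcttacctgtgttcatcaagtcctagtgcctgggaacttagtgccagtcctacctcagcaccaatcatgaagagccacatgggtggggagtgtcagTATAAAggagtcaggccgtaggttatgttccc
The match in Pigr begins 71 bases and that in Gp2 32 bases before the start. The E-box letters were present in 9 of the 61 member promoters (14.8%) and in 6.02% of all 32851 promoters of that length. The TATA letters were present in 3 member promoters (4.92%) and in 12.4% of all. These matches describe letters and are not evidence of binding.

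Further members act in secretion or in its cells but are in none of the lists; they were grouped by role after their values were seen. Stxbp2, a Munc18-type protein of granule exocytosis, read 97.1 then 845.0 in the basal pools and 930.9, 718.6 and 940.9 in the duct pools. On this probe set basal replicate 2 lay inside the duct range. Hdc, the enzyme that makes histamine, read 5.94 then 447.0 in the basal pools and 216.4, 96.1 and 149.4 in the duct pools, all 3 of them between the basal arrays. Kcnq1, a potassium channel subunit of secretory and other epithelia, measured 54.0 and 626.1 against 193.1 to 272.2 on the duct arrays. Pm20d1, a secreted enzyme that joins amino acids to fatty acids, measured 33.1 and 533.2 against 7.75, 208.3 and 504.3. Its other probe set had 325.8 then 414.2 in the basal pools and 138 to 201 in the duct pools. There the basal pools were within 2-fold of each other and both lay above the duct pools.

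Other members with large differences have no role in secretion that is given here. Mark1, a kinase of microtubule-binding proteins, read 5.09 then 429.1 in the basal pools and 1.73, 74.9 and 6.14 in the duct pools. Zfp94, a zinc finger gene, read 15.1 then 475.6 in the basal pools and 2.90, 41.8 and 43.0 in the duct pools, and was the only member at or below the brightest Bacillus control on all 3 of them. On both member probe sets basal replicate 2 stood alone among the 5 arrays. For Mark1 this was at least 7.19-fold over basal replicate 1, taken at that array's brightest Bacillus control. A brighter probe set of Mark1 had 317.4 then 428.1 in the basal pools and 106.4, 175.1 and 131.6 in the duct pools, so there both basal pools lay above the duct pools. Wac, a regulator of transcription-coupled histone ubiquitination, read 83.7 then 893.7 in the basal pools and 52.5, 47.8 and 17.7 in the duct pools. Its duct arrays all lay below both basal arrays, as did those of Cdyl2, a chromodomain gene, at 65.8, 80.4 and 50.9 against 88.8 and 600.4.

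Members of centrosomes, cilia and testis formed a further group. Cep128, a centriole protein, read 10.8 then 427.7 in the basal pools and 124.9 to 246.0 in the duct pools. Its other probe sets were all within 2-fold between the basal pools, at 97.3 and 103.4, 123.4 and 166.2, and 130.8 and 118.9. The first of them reached 918.2 on duct replicate 3. Ak7, an adenylate kinase of motile cilia, measured 82.6 and 402.9 against 40.7 to 97.9, and Ninl, a protein of the centrosome, 99.7 and 406.2 against 27.8 to 156.4. Tex33, a gene named for its expression in testis, measured 25.3 and 837.9 against 243.8 to 386.2. On the member probe sets of this group the duct arrays of Cep128 and Tex33 lay between the basal arrays, while those of Ak7 and Ninl reached below both.

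The remaining members covered general cell functions. The zinc finger genes Zfp352, Zfp551, Zfp719 and Zfp974 ran from 408.1 to 535.9 on basal replicate 2 and from 5.23 to 209.0 on the duct arrays. Zfp352 was the 1 gene with 2 member probe sets, which share their target and are not separate observations. Transcription and chromatin genes were Grhl2, a transcription factor of epithelial identity, with Arid4b, Phf7, Ankrd12, Eny2, Gpn1 and Ints2. RNA processing genes were Lsm2, Smg5, Pym1, Ddx55 and Strbp, and ubiquitin ligase genes were Fbxo21, Trim37 and Tmem129. Genes of enzymes were Ogdh, a subunit of the mitochondrial oxoglutarate dehydrogenase, with Acot12, Nat8f3 and Ntpcr. Signalling, matrix and cytoskeletal genes were Abl1, a tyrosine kinase, Has2, a hyaluronan synthase, Apcdd1, a Wnt inhibitor, Trpc4, a cation channel subunit, Fmn1, a formin, and Magi1, a junction scaffold. The others were Susd5, Fam160b1, Lmntd2, Ptov1, Lmbr1, Mospd3, Osgin2, C2cd4b and 4930519G04Rik.

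Among the members of this mixed group with large differences, Fam160b1 was the brightest on basal replicate 2, and read 97.0 then 1460 in the basal pools and 163.1, 475.9 and 434.1 in the duct pools. Abl1 read 45.5 then 581.0 in the basal pools and 276.2, 222.3 and 209.8 in the duct pools. Gpn1, a GTPase of RNA polymerase assembly, read 17.5 then 440.4 in the basal pools and 62.2, 138.3 and 130.5 in the duct pools. A brighter probe set of Gpn1 had 1147 then 1121 in the basal pools and 790.0 to 1043 in the duct pools. On the member probe sets of all 3 genes the duct pools lay between the basal pools. Lmntd2, a lamin tail domain gene, read 36.0 then 570.9 in the basal pools and 118.0, 256.3 and 465.7 in the duct pools, also between them. Fmn1 read 25.5 then 427.2 in the basal pools and 206.4, 89.8 and 318.8 in the duct pools. Trpc4 read 43.8 then 635.1 in the basal pools and 139.6, 186.5 and 40.3 in the duct pools, so 1 duct pool lay just below basal replicate 1. Apcdd1 was split in the same way, with 46.4 then 536.0 in the basal pools and 44.5, 336.3 and 385.6 in the duct pools. The brightest other probe set of Apcdd1 had 3998 then 3924 in the basal pools and 2805 to 3750 in the duct pools. Arid4b, a chromatin protein, had 43.8 then 444.7 in the basal pools and 506.5, 159.4 and 819.0 in the duct pools, which lay on both sides of basal replicate 2. Has2 had 65.1 then 556.3 in the basal pools and 122.9, 142.7 and 383.1 in the duct pools, again between them.

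In the duct arrays the members spread over the whole range from background to high intensity. 3 members, Dmbt1, Stxbp2 and Ogdh, were at or above 400 on all 3 duct arrays, which is 5.26% of members against 26.6% of all probe sets with 1 symbol. Among the 12602 probe sets below 100 on basal replicate 1, the share at or above 400 on all duct arrays was 0.389%. Ogdh read 49.4 then 443.9 in the basal pools and 546 ± 65.8 (SD, n = 3) in the duct pools. 5 members, Mark1, Zfp94, Wac, Cdyl2 and Ak7, were below 100 on all 3 duct arrays, or 8.77%, against 27.1% of all probe sets with 1 symbol and 65.3% of those below 100 on basal replicate 1. Without duct replicate 3 these counts were 3 and 7, without duct replicate 1 they were 5 and 7, and without duct replicate 2 they were 5 and 11. With all 3 arrays, 22 members were below 100 on 1 or 2 duct arrays and 30 on 0 of them.

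Basal replicate 2 stood above all 3 duct arrays in 45 members, inside the duct range in 10 and below it in 2. Those above the duct range are favoured by the choice, which asked for a bright value on this array alone. Basal replicate 1 stood below all 3 duct arrays in 41 members, or 71.9%, against 24.3% of all probe sets, and this too follows in part from choosing dim values there. The 10 members with the highest duct levels, by mean log2, were Dmbt1, Stxbp2, Pigr, Ogdh, C920021L13Rik, Arid4b, Fbxo21, Ptov1, Susd5 and Tmem129. Susd5, a sushi-domain gene, read 192.9, 1132 and 248.1 in the duct pools, and Eny2 612.9, 54.3 and 69.9, so 1 pool stood far above the others in each. The duct arrays were over 4-fold apart in 16 of the 57 members on the log2(intensity + 16) scale, against 10.9% of all probe sets with 1 symbol. Duct replicate 1, whose median intensity was lowest, was the dimmest of the duct arrays in 27 members and the brightest in 15. How often it was so over all probe sets was not counted. Of all probe sets with 1 symbol 45.1% were below 100 on duct replicate 1, against 35.6% and 35.7% on duct replicates 2 and 3.

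**Figure D1:**
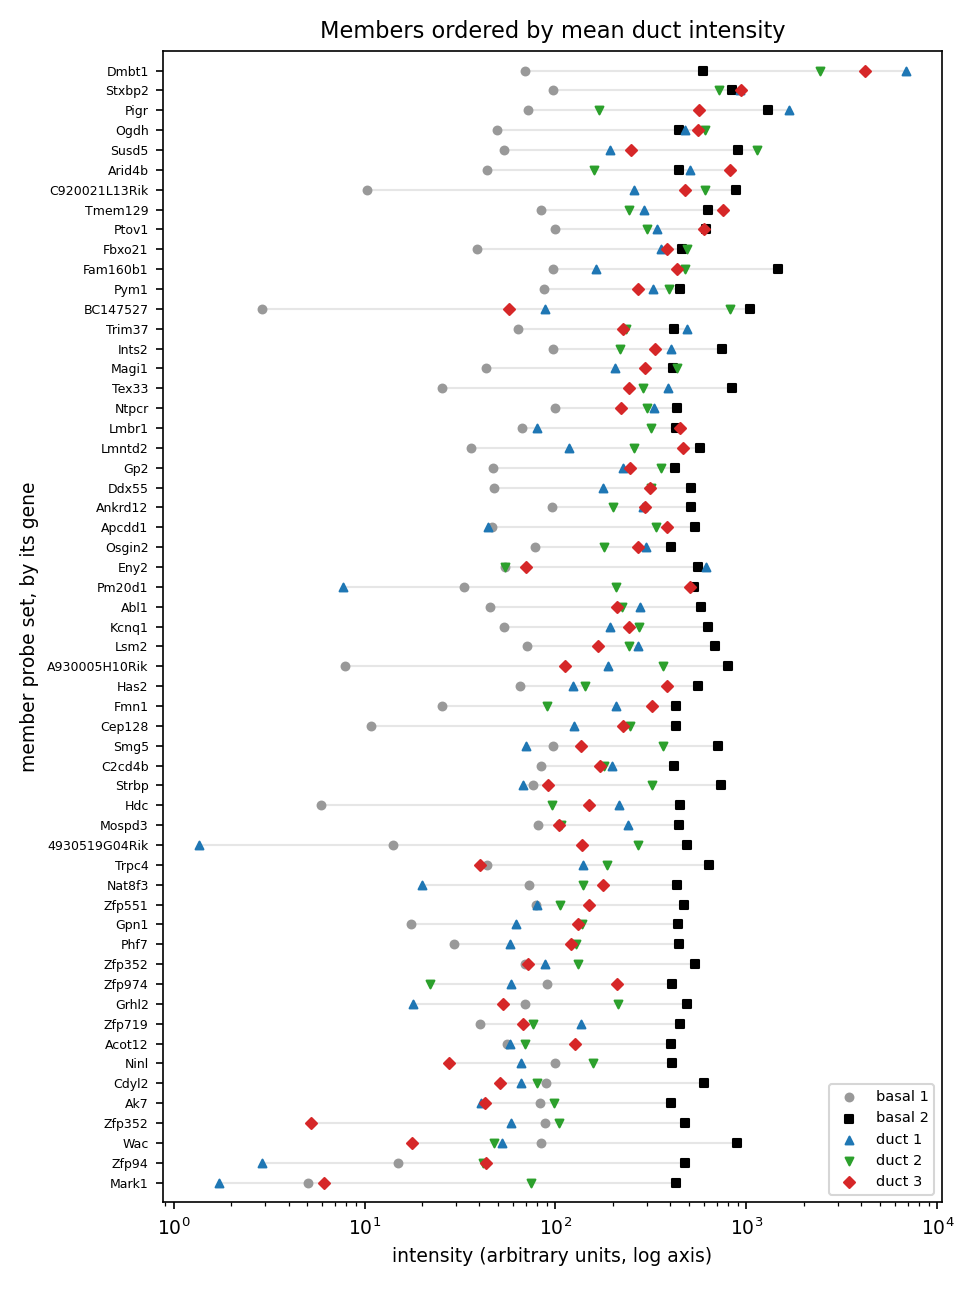
Intensity of each of the 57 member probe sets (rows, named by gene) on the 5 arrays, on a log axis in arbitrary units, ordered by the mean of the duct arrays; each symbol is 1 array. Dmbt1 at the top lay at 2424 or more on every duct array, Mark1 at the bottom at 74.9 or less, and basal replicate 2 was above all duct arrays in 45 rows.

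Duct against basal is the contrast of the study's design, and it includes the arrays that chose the members. With limma on all 27023 probe sets that passed the filter on low values, 55 (0.204%) had an adjusted p under 0.05, 53 (0.196%) higher and 2 (0.0074%) lower in duct cells. That split moved with the processing: limma called 267 higher and 43 lower with each array centred on its median, and 223 higher and 72 lower with the lowest 60% left out. All 57 members passed the filter, which their bright value on basal replicate 2 made likely, and 0 were called. At an unadjusted p under 0.05 there were 2, Dmbt1 (log2 fold change 4.18, SE 0.90, limma adjusted p = 0.154) and Wac (-2.51, SE 0.95, limma adjusted p = 0.312). With 1 array left out, 9 probe sets were called without duct replicate 1 and 0 without any other array, and 0 members in each of these fits. Nothing is read from the members' count, because the choice used both basal arrays of the contrast. The sums of the thyroid and squamous lists moved with the contrast. The 8 thyroid genes summed to 673.5 and 616.3 in the basal pools and 10010 to 22161 in the duct pools. Most of the duct sum was 1 gene, Tg, at 11.1 and 53.2 in the basal pools and 8779 to 20119 in the duct pools. The highest duct value of any other gene in that list was 698.5, of Iyd. Duox1 was read there in place of Duox2. The 23 squamous genes summed to 15080 and 16615 in the basal pools and 120155 to 163711 in the duct pools. The part of these 2 lists in the members' duct levels was not tested. The median log2 fold change of duct against basal was 0.14 over the members and -0.13 over all tested probe sets.

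The group's size lay within the full range of the duct pairs, whose upper end had duct replicate 1 as the dim array. The reverse choice, below 100 on basal replicate 2 and at or above 400 on basal replicate 1, gave 54 probe sets. Between 2 duct arrays the same choice gave 16 to 132 probe sets. The highest counts were those with duct replicate 1 as the dim array (96 and 132). The other duct pairs gave 16, 20, 26 and 35, each fewer than the 57 and 54 of the basal pair. Over all probe sets with 1 symbol, 9.96% were at least 2-fold higher on basal replicate 2 and 10.2% at least 2-fold higher on basal replicate 1. The members and the reverse set differed in their duct levels: the median of the duct means was 235.6 over members and 108.2 over the reverse set. 33.3% of members and 9.26% of the reverse set were at or above 400 on at least 1 duct array. Of the reverse set 1 gene, Tubb3, was in a marker list, that of nerve cells. These counts were compared with no test.

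**Figure D2:**
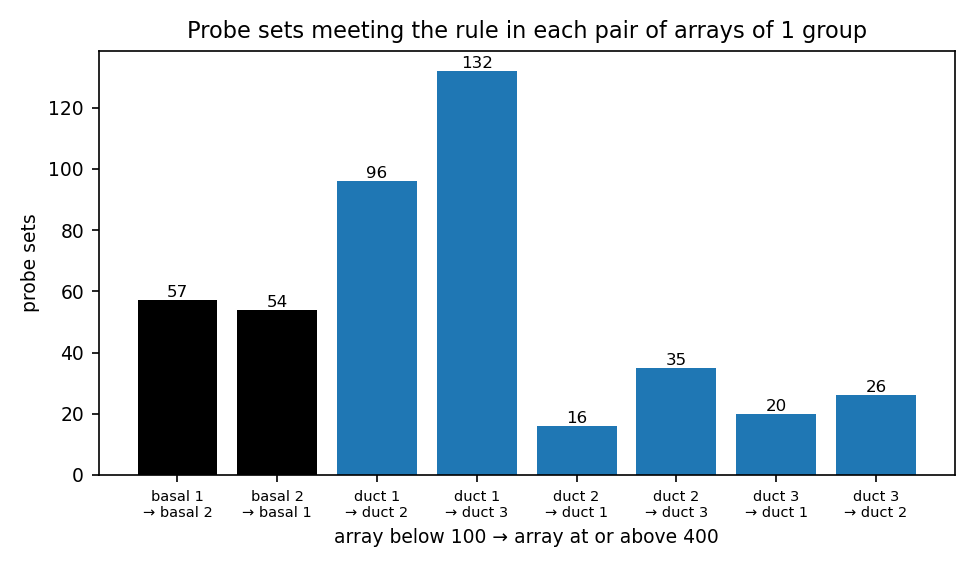
Number of probe sets with 1 symbol (vertical axis) below 100 on the first named array and at or above 400 on the second, for both directions of the basal pair (black) and the 6 of the duct pairs (blue), with the same symbols left out. The basal pair gave 57 and 54, within the 16 to 132 of all duct pairs. Both counts were above the 16 to 35 of the duct pairs whose dim array was not duct replicate 1.

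Other probe sets of the same genes, which the choice did not use, gave a second reading of the same RNA. 43 of the 56 genes had at least 1, and there were 98 in all. Of these 18 were at least 2-fold higher on basal replicate 2, 4 at least 2-fold lower and 76 within 2-fold. Over all probe sets with 1 symbol, 9.96% were at least 2-fold higher and 10.2% at least 2-fold lower. The median difference was 0.08 on the log2(intensity + 16) scale, against -0.002 over all probe sets with 1 symbol. Some of the 98 were not above the brightest Bacillus control on either basal array. Among these were higher ones of Cdyl2, Nat8f3, Ptov1 and Trpc4 and a lower one of Cdyl2. The 37 other probe sets at or above 400 on a basal array belonged to 21 genes. Of these 37, 3 were at least 2-fold higher on basal replicate 2, 1 at least 2-fold lower and 33 within 2-fold, with a median of -0.03.

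The 3 that were higher were those of Pigr, Stxbp2 and Phf7. The other Pigr probe set read 844.8 then 4613 in the basal pools and 3724, 1412 and 1682 in the duct pools, so both Pigr probe sets placed basal replicate 1 lowest. The other Stxbp2 probe sets measured 464.7 and 1252 and 441.1 and 844.9 on the basal arrays, and all 3 of the gene were thus higher on basal replicate 2. Their duct values were 661.7 to 1021 and 403.6 to 525.0. On both of them basal replicate 2 lay above all duct arrays, unlike on the member probe set. Basal replicate 1 lay below the duct arrays on the former and inside their range on the latter. Hdc had a second, dimmer probe set that read 9.41 then 191.7 in the basal pools and 9.18 to 45.6 in the duct pools. Phf7, a PHD-finger gene, had 2 others at least 2-fold higher, at 128.4 and 457.9 and at 53.7 and 144.7, and 2 that were within 2-fold.

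Several members with a bright other probe set showed no such gap on it. Grhl2 measured 69.1 and 487.6 on the member, but 4254 and 3823, 1181 and 1138, and 1054 and 665.1 on its others. Arid4b measured 43.8 and 444.7 on the member and 5982 and 5997 on its brightest other probe set. Wac measured 83.7 and 893.7 on the member and 2004 and 1424 on its brightest other. Eny2, a subunit of transcription complexes, measured 54.1 and 559.9 on the member, 5482 and 5362 on the other probe set that was brightest on basal replicate 1, and 75.0 and 333.6 and 878.1 and 300.8 on a further pair, which differed in opposite directions. In each of these genes that brightest other probe set lay within 2-fold between the basal arrays. A930005H10Rik, among the members with the largest differences, had 3 others that were all lower on basal replicate 2, at 139.4 and 79.7, 226.1 and 166.2, and 136.6 and 50.7. C920021L13Rik had 1 other, at 166.6 then 9.18, the latter within the Bacillus range. Gp2 and Dmbt1 had no other probe set.

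**Figure D3:**
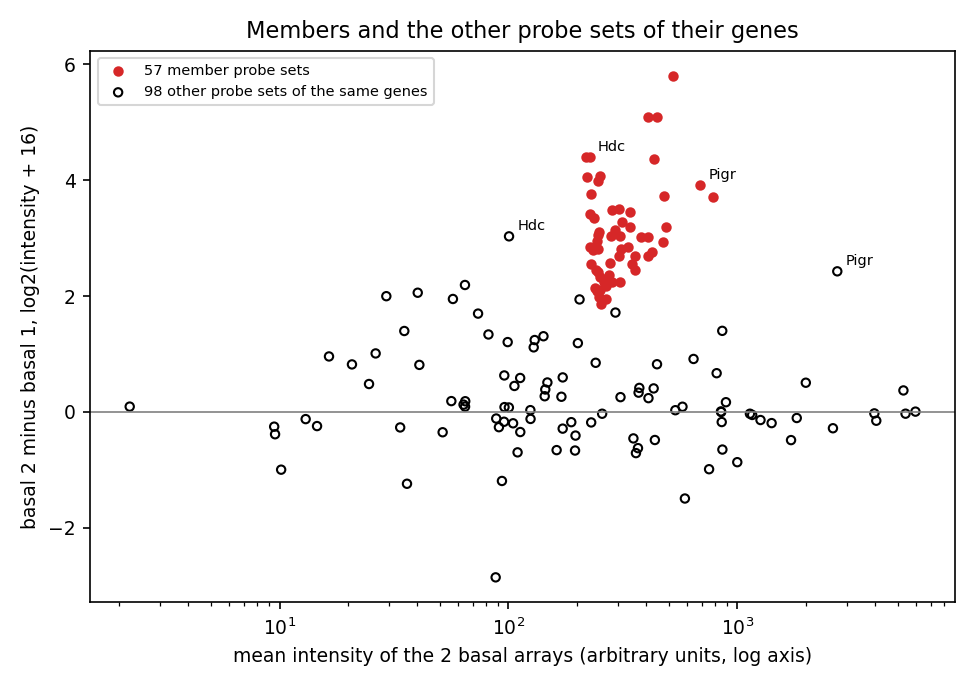
Difference of basal replicate 2 minus basal replicate 1 on the log2(intensity + 16) scale (vertical axis) against the mean intensity of the 2 basal arrays (log axis, arbitrary units) for the 57 members (red) and the 98 other probe sets of their genes (open circles). The others scatter about a median of 0.08, with that of Pigr at 2.43; the far points of Hdc (9.41 then 191.7) above and C920021L13Rik (166.6 then 9.18) below each rest on 1 value within the Bacillus range, so their distance from 0 is set by the added 16.

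The question of luminal secretory cells turns on genes that the choice left out as well as on members, so marker lists were read on both basal arrays, with the most intense probe set of each gene. Of 26 luminal secretory genes 7 were at least 2-fold higher on basal replicate 2 and 0 at least 2-fold lower, with a median difference of 0.26; over all 18193 genes 9.34% were at least 2-fold higher and 9.61% lower. Of 18 goblet and mucous genes 8 were higher and 0 lower, with a median of 0.76. Of 15 gland serous genes 4 were higher and 0 lower, with a median of 0.08. Among the genes at or above 400 on a basal array, the counts were 6 of 22 luminal secretory, 8 of 11 mucous and 2 of 5 serous genes, against 4.90% of all 8024 such genes; 0 genes of these 3 lists were at least 2-fold lower there, against 4.32%. Pigr enters the first list by its other, more intense probe set, while Dmbt1 and Gp2 enter the second by their member probe sets and had to be higher. Muc5b is in both the first and the second list.

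The difference did not run through the secretory genes evenly. Muc5b, a gel-forming mucin of airway secretory and mucous cells, met the intensity limits and was left out by its symbol; it read 8.81 then 1491 in the basal pools and 1176, 296.8 and 759.1 in the duct pools. Against the brightest Bacillus control of basal replicate 1 it was at least 25.0-fold higher on basal replicate 2. Bpifb1, a secreted protein of mucous and serous cells, read 595.5 then 12683 in the basal pools and 408.1 to 1863 in the duct pools. Scgb1a1 and Scgb3a1, secretoglobins, differed by 1.72 and 1.91 on the log2(intensity + 16) scale. Other abundant club cell genes differed little: Scgb3a2 differed by 0.02, Bpifa1 by 0.04, Cbr2 by -0.004 and Cyp2f2 by -0.05, and the signs of the last pair turned with quantile normalization or median centring. These 4 read 25272 or more on both basal arrays, near the top of the range, and whether the signal was compressed there was not tested. At lower intensity the list was split. Gabrp, a GABA receptor subunit, read 11299 then 11282 in the basal pools, with a sign that turned with scaling, and Lypd2 9357 then 9723. Reg3g read 11702 then 23282, Aldh1a7 2899 then 5341 and Aox3 3114 then 4810, all higher on basal replicate 2 by less than 2-fold. Of the 26 luminal secretory genes 20 were higher on basal replicate 2 to any extent. Hp, the gene of haptoglobin, read 175.1 then 529.6 in the basal pools and 47.4 to 93.1 in the duct pools, and Kcnj16, a potassium channel gene, 56.3 and 233.7 against 299.2 to 492.6.

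Of the 18 mucous genes 14 were higher on basal replicate 2 and 4 lower, to different extents. Clca1, a secreted protein of goblet cells, read 440.7 then 6907 in the basal pools and 1615, 695.6 and 1115 in the duct pools. Its difference of 3.92 on the log2(intensity + 16) scale was 2.36 as the mean of its 2 probe sets. Fcgbp, a mucus protein that binds immunoglobulin, measured 108.6 and 1622 against 681.1, 321.3 and 239.2. For both genes basal replicate 2 was the brightest of the 5 arrays and basal replicate 1 the dimmest. Agr2, a disulfide isomerase of mucin folding, measured 2311 and 5784 against 3491, 2288 and 1695, and Tff2, a trefoil peptide, 259.9 and 942.6 against 402.0 to 1299. Itln1, an intelectin of goblet cells, measured 239.3 and 612.1 against 203.9 to 2152. The 4 that were lower were Ern2 at 315.0 and 164.5, Tff1 at 303.4 and 207.3, Qsox1 at 2103 and 1595 and Galnt12 at 565.0 and 457.3, none by 2-fold; the mean of the 4 probe sets of Qsox1 was 0.09 higher. Muc5ac, the other main gel-forming mucin of the airway surface, measured 34.2 and 53.0, both below the brightest Bacillus control of the array.

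Serous products and luminal keratins gave further readings. Ltf, the gene of lactoferrin, read 3404 then 10406 in the basal pools and 10412 to 20565 in the duct pools. Lyz1, a lysozyme of serous cells, measured 10113 and 26692 against 20632 to 30172, but shares sequence with Lyz2, and the mean of its 3 probe sets gave a difference of 0.76 rather than 1.40. Wfdc2, a secreted protease inhibitor, read 23550 then 23628 in the basal pools, and Aqp5, a water channel, 9133 then 10027, both within 2-fold. The dim Folr1, a folate receptor, was lower on basal replicate 2, at 99.3 then 50.3. The luminal keratins Krt7, Krt8, Krt18 and Krt19 differed by 0.12, -0.17, -0.11 and -0.11, none of them by 2-fold. The 20 basal cell genes had a median difference of -0.03, with 1 at least 2-fold higher, the dim Lmo1, and 0 lower. Krt5 and Trp63, which define basal cells, read 12334 then 11617 and 9891 then 8038 in the basal pools, so the defining genes of the labelled cell type were high on both. Abundant luminal secretory genes were high on both as well, among them Scgb3a2 at 32282 and 32688 and Cyp2f2 at 30636 and 29586. Itga6, the gene of the antigen in the gate, measured 5954 and 4545.

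**Figure D4:**
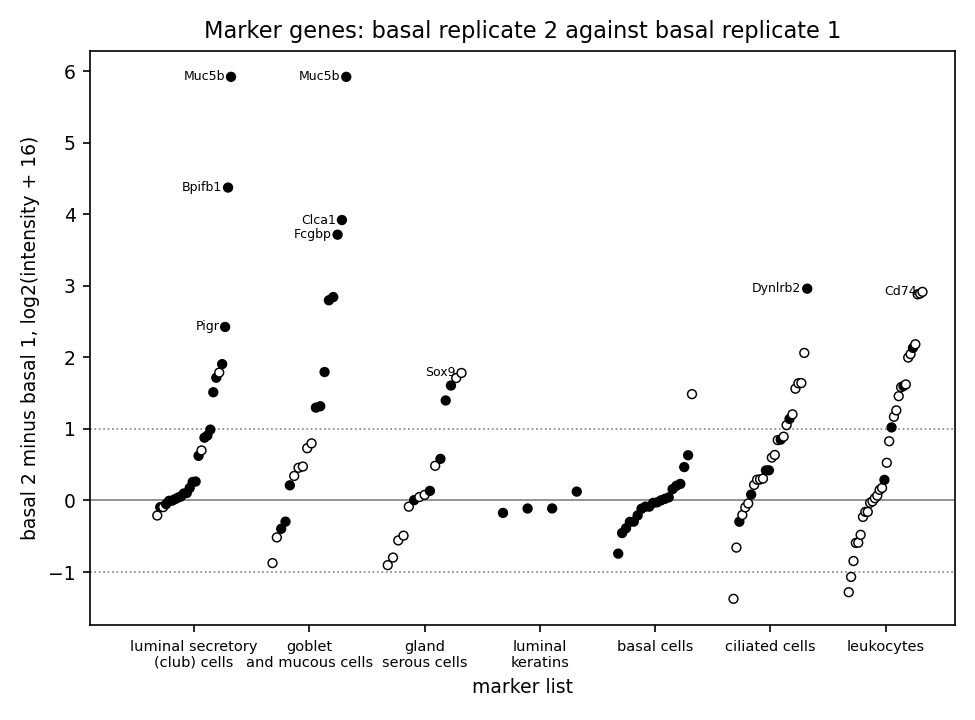
Difference of basal replicate 2 minus basal replicate 1 on the log2(intensity + 16) scale for each gene of 7 marker lists; each point is 1 gene, filled where it was at or above 400 on a basal array, and dotted lines mark 2-fold. The top point of the luminal secretory and mucous lists is Muc5b, whose height is set by the added 16 because basal replicate 1 (8.81) was within the Bacillus range, while the 4 luminal keratins lay between -0.17 and 0.12.

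Marker lists of other cell types differed between the basal arrays in both directions. Of 26 ciliated cell genes 8 were at least 2-fold higher on basal replicate 2 and 1 lower, with a median of 0.51; Dynlrb2, a dynein light chain, measured 176.7 and 1486, while Foxj1, the factor that defines these cells, measured 115.3 and 188.1. Among ciliated genes at or above 400 on a basal array 2 of 7 were higher and 0 lower. The ciliated list summed to 14334 then 16693 in the basal pools and to 14331 to 15081 on the duct arrays. Of 32 leukocyte genes 14 were higher and 2 lower, with a median of 0.41, and 15 and 14 genes of this list were at or below the brightest Bacillus control on basal replicates 1 and 2. The list without Lyz2, whose sequence is close to that of Lyz1, summed to 3981 then 6329 in the basal pools and to 4513 to 7117 on the duct arrays. Ptprc, the pan-leukocyte antigen, measured 254.4 and 533.0 on the basal arrays, and Cd74, the class II invariant chain, 24.9 and 293.1. Lower on basal replicate 2 were Cd8a, at 253.5 then 94.8, Cd79b, at 109.4 then 43.8, and Cpa3, at 136.6 then 68.9. Of 16 endothelial genes 2 were at least 2-fold higher and 3 lower, with a median of -0.42, and of 17 tuft, ionocyte and neuroendocrine genes 6 were higher and 4 lower, with a median of 0.07. The part of ciliated cells and leukocytes in the members was not tested.

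The sums of the secretory lists stood as follows. The luminal secretory list summed to 264063 then 344986 in the basal pools and to 221024 to 251317 on the duct arrays. The mucous list summed to 8202 then 22648 in the basal pools and to 11476 to 20622 on the duct arrays, and the serous list to 49179 and 75275 and to 67578 to 83181. Both basal arrays were thus above all duct arrays in the luminal secretory sum. Basal replicate 2 was above them in the mucous sum and inside the duct range in the serous sum. Each sum follows its brightest genes. In the luminal secretory sum Scgb1a1 read 9934 then 32690 and Scgb3a1 7615 then 28609 in the basal pools. In the mucous sum Clca1 read 6907 on basal replicate 2 and Dmbt1 6873 on duct replicate 1. Lyz1, which shares sequence with Lyz2, was kept in the serous sum. The luminal keratins summed to 52033 and 48550. In arrays of sorted pools, fewer cells of a type and less RNA per cell cannot be told apart.

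The basal pools also differed in sex-linked transcripts. Eif2s3y read 163.6 then 532.1 in the basal pools, and Kdm5d 326.6 then 587.1, while Xist, expressed from the inactive X chromosome, measured 15590 and 8243. The part of the sexes of the pooled mice in the members was not tested.

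The limits of the choice passed through a continuous range of values. The members nearest the lower limit were Ntpcr, Ninl and Ptov1, at 99.9, 99.7 and 99.3 on basal replicate 1, and the nearest probe sets outside it were those of Pus7l, A930007A09Rik and Grin2d, at 100.8, 102.3 and 102.7. The members nearest the upper limit were Osgin2, Acot12 and Ak7, at 401.0, 402.1 and 402.9 on basal replicate 2, and outside it were Emc8, Cadm1 and Ybey, at 399.8, 397.8 and 393.5. On basal replicate 2, 29 members were below 500, and 3 were at or above 1000: BC147527, Pigr and Fam160b1.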

How the data were processed

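The authors deposited 1 linear intensity per probe set and array for 5 arrays (2 basal, 3 duct); per the labels, RNA was extracted with a Qiagen RNeasy kit and labelled by the Affymetrix protocol. The deposited values look scaled, with a mean of 500.0 once 2% of probe sets are trimmed from either end. The sources used here give neither summary method nor software. The table held 45101 probe sets, of which 64 controls were left out; 34945 had 1 symbol in the platform annotation, 932 several and 9160 none listed. No column of another sample was present (0). A further sort antigen is not reported here.

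The deposited intensities were used as given. Differences are on the log2(intensity + 16) scale, which understates those of dim genes. Duct minus basal was fitted on all 5 arrays by limma 3.58.1 (lmFit, eBayes; R 4.3.3), 2-sided, without the lowest 40% of probe sets by mean. Calls had a Benjamini-Hochberg adjusted p under 0.05. The scripts were tested on simulated data.

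The members and the 19 marker lists were chosen with earlier results of these data known. Named genes were the 20 largest differences, the 10 highest in duct, list members, those nearest the limits, genes with several member probe sets, those within the Bacillus range on all duct arrays and up to 6 examples a list by level; all remaining members and list examples picked for their difference were named after their values were seen. Replicate numbers come from separate pools. Member genes are given by their member probe set and list genes by the most intense probe set. Alternatives were scaling, pseudocounts, filters, limits, kinds of probe sets, arrays left out and a replicate block. Figures were drawn with matplotlib 3.10.9.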

Additional observations from a re-analysis of the deposited data

How the results depend on the processing

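Of 76 alternatives 47 left a count within 1.5 times its reported value, and 29 did not. The 57 members became 24 with basal replicate 1 below 50, 28 with it below its brightest Bacillus control, 9 with basal replicate 2 at or above 800, and 36 with 1 probe set per gene; both other scalings gave 57. The 3 members at or above 400 on all duct arrays became 1 under each of these 4 choices and without probe sets of the possibly cross-hybridising kinds; leaving out 1 duct array gave 3 to 5, with 5 without duct replicate 1 or 2. The 5 members below 100 on all duct arrays became 2, 2, 1 and 3 under the same 4 choices, and 7 to 11 with 1 duct array left out, the highest without duct replicate 2. Each of these follows from fewer probe sets or arrays. In the fit of duct against basal the 55 calls became 310 with median centring, 163 with a pseudocount of 64, 27 with no filter, 295 with the lowest 60% left out, and 0 to 9 with 1 array left out; 9 were called without duct replicate 1 and 0 without any other one. The cause was not tested. With the replicate number as a block 0 were called, and 2588 had an unadjusted p under 0.05. Same-numbered arrays deviated from their group means with correlations across probe sets of -0.09 and -0.06. The deviations of the 2 basal arrays mirror each other, so these values cannot decide whether the numbers pair the samples. Members called were 1 with median centring and 0 in every other fit. The luminal secretory count was 7 or 8 and the mucous count 8 under all alternatives; these lists other than the luminal secretory one were rerun by a choice made after seeing the data. The serous count of 4 was 1 when all probe sets of a gene were averaged, and the leukocyte count of 14 was 9 with a pseudocount of 64. Dim values limit the members: 28 were within the Bacillus range on basal replicate 1.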
